A study of Caenorhabditis elegans with 6 samples.

Results

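C-type lectin genes of Caenorhabditis elegans were followed in RNA drawn from A-class motor neurons of unc-37 mutant and wild-type larvae. The members were all genes whose single symbol in the array's gene table is clec followed by a number, which gave 220 of the 17118 genes that the table names alone. They were read by 236 probe sets, and each gene was taken at its brightest probe set over the 6 arrays. RefSeq lists all 220 under the same symbol and marks 18 of them as pseudogenes.

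C-type lectins are proteins with a carbohydrate-recognition fold that, in vertebrates, often binds sugars in a calcium-dependent way. The nematode family is greatly expanded, and most members are predicted to be secreted. Many are made in the intestine and change in level when the worm meets pathogenic bacteria, and a few act in the nervous system or the extracellular matrix. They are not known as a class of motor neuron genes.

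Messenger RNA was measured on 3 arrays of unc-37(e262) animals and 3 arrays of wild-type animals of strain N2, all at larval stage L2 and grown at 25 °C on a lawn of the E. coli strain Na22. In both groups the unc-4 promoter drove a FLAG-tagged form of the poly(A)-binding protein PAB-1, so that transcripts of the DA and VA neurons could be pulled down with it. unc-37 encodes a Groucho-type corepressor and UNC-4 is a homeodomain protein that works with it; the comparison asks how transcripts of these cells differ in animals with the unc-37 mutation. The labels name the arrays biological replicates, give no further origin of each sample, and number the unc-37 arrays from 89 to 98 and the wild-type arrays from 73 to 85, so that any effect of array order cannot be told apart from genotype. Such a pull-down enriches for transcripts of the tagged cells and also carries RNA of other tissues, and with bulk RNA fewer cells of a type and less RNA per cell cannot be told apart.

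Median intensity lay between 50.1 and 52.4 on all arrays, and precision is limited by how few arrays there are. Log2 values of arrays correlated across probe sets at 0.984 to 0.990 within unc-37, 0.986 to 0.991 within wild type and 0.964 to 0.981 between them. unc-37 itself had intensities of 477, 547 and 506 in unc-37 arrays, against 371, 349.6 and 360.1 in wild-type arrays, which does not check the labels because they do not say what e262 alters. All 6 genes of an A-class and cholinergic list rose, with summed intensities of 3383 to 3960.5 in unc-37 and 1211 to 1701 in wild type. Their log2 changes (unc-37 minus wild type) ran from 0.94 to 2.74. The largest was that of unc-4, whose promoter drove the tagged protein and which gave much of the difference in the sums. unc-4 had 1067, 1441 and 1001 in unc-37, against 290, 156 and 114 in wild type. Lists of intestine, hypodermis, pharynx and body wall muscle markers were read on every array as well and are given below. No detection call was made, and the lowest intensity of any probe set was 10.2.

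Of the 220 lectin genes, 17 fell in unc-37 arrays and 1 rose, each at a Benjamini-Hochberg adjusted p below 0.05 in limma over all 22548 probe sets. Over all 17118 genes 2.81% fell and 3.94% rose, 6.75% in either direction, while among the lectin genes 7.73% fell and 0.455% rose. Intensities summed over all 220 members were 16014 to 17686 in unc-37 and 22112 to 23920.2 in wild type, without overlap. clec-17, clec-174, clec-85, clec-67, clec-45, clec-65 and clec-76 fell by 2-fold or more, and clec-52 was the gene that rose. Log2 changes, here always unc-37 minus wild type, had a median of -0.10 over the members and -0.01 over all genes, and 77.7% of members against 53.4% of all genes lay below 0. No test was made of the family as a set, since its members were chosen with earlier results of these arrays known.

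The calls came mostly from members with clear signal. Most lectin probe sets were dim: 48 members, or 21.8%, had a mean signal above 6 on the log2 scale, as did 44.3% of all genes. Of these 48, 13 fell and 1 rose, which is 27.1% and 2.08%, where 5.06% of all genes with such a signal fell and 7.59% rose. Their median log2 change was -0.27, against 0.04 for all genes of that signal, and 42 of the 48 lay below 0. Of the 172 dimmer members 4 fell, 2.33% against 1.03% of all such genes (2.07% in either direction), and limma called none higher (2 had an unadjusted p below 0.05, and 1.05% of all such genes rose). Arrays of unc-37 and wild type were fully separate in 28.2% of all members, close to the 26.4% of all genes; the share was 64.6% of the brighter members against 35.2% of all brighter genes, and 18% of the dimmer members against 19.3% of all dimmer genes.

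**Figure D1:**
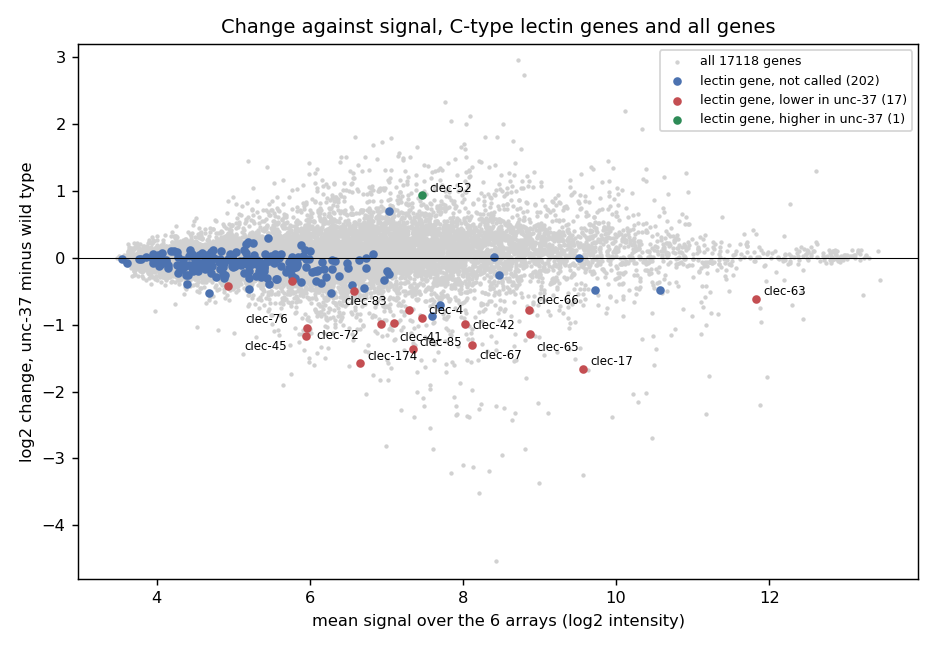
Log2 change (unc-37 minus wild type, vertical axis) against mean signal over the 6 arrays (log2 intensity, horizontal axis), for all 17118 genes (grey) and the 220 C-type lectin genes. The 17 that fell (red) include the brightest member, clec-63, and the 1 that rose (green) is clec-52; the 202 members not called (blue) are mostly dim.

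**Figure D2:**
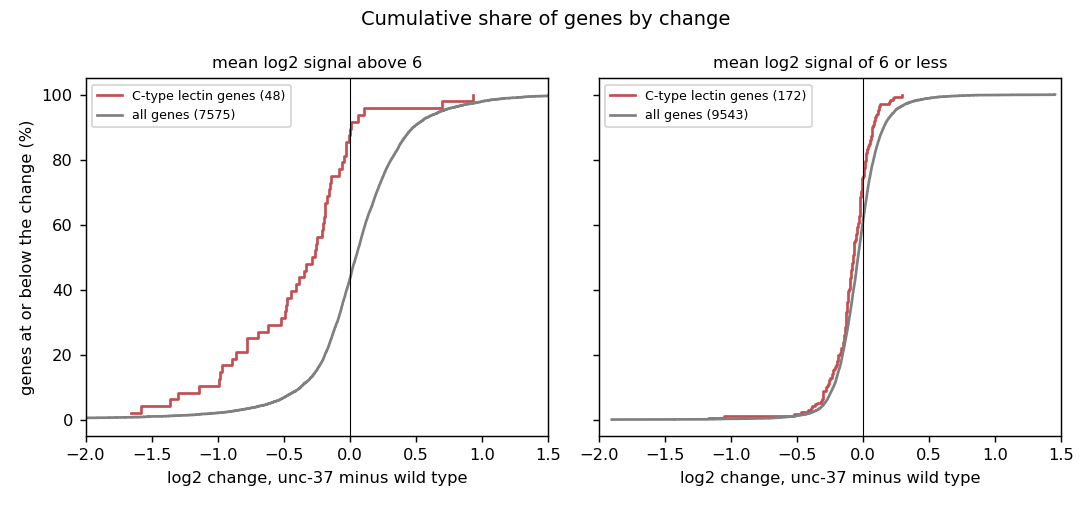
Share of genes (vertical axis, percent) at or below a given log2 change (unc-37 minus wild type, horizontal axis, drawn from -2 to 1.5), for C-type lectin genes (red) and all genes (grey), in panels of brighter and dimmer genes. The lectin line lies to the left of the line of all genes for a mean signal over 6, with medians of -0.27 and 0.04, and close to it in the other, with medians of -0.08 and -0.04.

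The family is best known for defence against bacteria, and several members studied for it fell. clec-67 and clec-85 are targets of the p38 kinase PMK-1, which drives intestinal immunity, and clec-4 has been linked to the immune response. clec-67 had intensities of 191, 206 and 142 in unc-37 arrays, against 416, 463 and 436 in wild-type arrays, a log2 change of -1.30 ± 0.14 (standard error of the moderated fit, n = 3 per group here and throughout; adjusted p = 0.00217). clec-85 had 126, 111 and 74.1 in unc-37, against 333, 260.4 and 203 in wild type (-1.36 ± 0.23, adjusted p = 0.0119). clec-4 had 132, 121 and 134 in unc-37, against 175, 239 and 331 in wild type (-0.90 ± 0.20, adjusted p = 0.0385). All 3 fell and no array of unc-37 reached the lowest wild-type array, although the wild-type values of clec-4 were widely spread. The call of clec-4 ended when wild-type replicate 2 or any single unc-37 array was left out (adjusted p = 0.0733 to 0.1187), and that of clec-85 without wild-type replicate 2 (0.0503).

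clec-41 and clec-42 encode lectins with antimicrobial activity against Bacillus thuringiensis. clec-41 had 103, 101 and 91.7 in unc-37, against 192, 207 and 179 in wild type (-0.97 ± 0.10, adjusted p = 0.00173). clec-42 had 173, 248 and 151 in unc-37, against 409, 326 and 374 in wild type (-0.98 ± 0.18, adjusted p = 0.0172). Both fell nearly 2-fold; clec-41 was tight within each group and stayed called with any array left out, whereas clec-42 was not called without wild-type replicate 1 (adjusted p = 0.0734) or unc-37 replicate 1 (0.0761).

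Other defence genes went without a call. clec-60 and clec-70, which are induced by Staphylococcus aureus, were at 32.3, 27.5 and 41.5 in unc-37 against 34.2, 39.8 and 33.2 in wild type (-0.10 ± 0.15, adjusted p = 0.781), and at 48.5, 50.1 and 58.3 in unc-37 against 64.7, 64.8 and 45.6 in wild type (-0.14 ± 0.15, adjusted p = 0.656). clec-39 and clec-49, needed for defence against Serratia marcescens, had log2 changes of -0.09 ± 0.09 (adjusted p = 0.601) and 0.06 ± 0.12 (0.818). In these 4 genes the arrays of the groups overlapped. The 95% intervals of their changes ran from -0.45 to 0.25 for clec-60, -0.49 to 0.20 for clec-70, -0.29 to 0.10 for clec-39 and -0.20 to 0.33 for clec-49.

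clec-52, which like clec-60 is used as a marker of the response to Staphylococcus aureus, was the single member that rose. It had 254, 207 and 276 in unc-37, against 105, 186 and 107 in wild type, a log2 change of 0.93 ± 0.22 (adjusted p = 0.0449). Wild-type replicate 2 stood close to the lowest unc-37 array, and the other wild-type arrays lay far below. The call was lost without each of the other 5 arrays in turn (adjusted p = 0.064 to 0.155) and, without wild-type replicate 2, it stood at adjusted p = 0.00826. It was also lost with a second quantile normalization (0.0769), and a scaling of the arrays to pan-neuronal genes brought the change to 0.33 (0.16). clec-180, whose function is not described here, had a like pattern of arrays, at 205, 129.7 and 174 in unc-37 against 86.6, 142 and 88.5 in wild type, and was not called (0.70 ± 0.22, adjusted p = 0.118).

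A pair of members has roles outside defence, and neither was called. clec-38 has been linked to axon guidance and the netrin receptor UNC-40. It had 48.5, 46.9 and 56.8 in unc-37, against 57.6, 66.7 and 63.3 in wild type (-0.30 ± 0.11, adjusted p = 0.153). clec-87, a core protein of chondroitin proteoglycans, had 118, 120.4 and 121 in unc-37, against 136, 146 and 146 in wild type (-0.25 ± 0.08, adjusted p = 0.136). In both the 3 unc-37 arrays lay below the 3 wild-type arrays, by a small amount. A further probe set of clec-87 gave the same change, -0.25 ± 0.09 (adjusted p = 0.137). Of the 11 members listed for a known role, which do not include clec-52, 5 fell and none rose.

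Some lectin genes stand in rows along the chromosomes. The RefSeq gene order was taken over protein-coding genes and all numbered clec genes, without other non-coding genes and pseudogenes. With at most 2 other protein-coding genes between neighbours, 84 members lay in 16 runs of at least 3 members. Of the 84 members in runs 10 fell (11.9%), and of the 136 members outside them 7 fell (5.15%); the difference between these shares was not tested. The 10 lay in 4 of the runs, and 6 of the 10 stood next to another measured member that fell. Neighbours in such runs are often close paralogs, so probe sets may bind more than 1 of them.

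One of these 4 runs is clec-62 to clec-66, 5 genes in a row with no other protein-coding gene between them. clec-63, the brightest member of the family, had 3129.6, 3092 and 2646 in unc-37, against 4522, 4565 and 4465 in wild type (-0.62 ± 0.10, adjusted p = 0.00912). clec-65 had 381, 317 and 259 in unc-37, against 745, 709.8 and 637 in wild type (-1.14 ± 0.14, adjusted p = 0.00392). clec-66 had 383, 327 and 362 in unc-37, against 583, 605 and 644 in wild type (-0.77 ± 0.10, adjusted p = 0.0037). These 3 fell with the groups far apart. clec-62 had 166, 194 and 134 in unc-37, against 219, 321 and 263 in wild type, and missed the threshold (-0.70 ± 0.17, adjusted p = 0.0515). clec-64, in the middle of the run, had 103, 121.5 and 76.2 in unc-37, against 82.4, 114 and 109 in wild type, with the groups overlapping (-0.03 ± 0.19, adjusted p = 0.948).

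The longest run with falls reaches from clec-67 to clec-79 and has 11 measured members, of which 4 fell. Besides clec-67 these were clec-174, clec-72 and clec-76. clec-174 had 60.4, 59.0 and 55.3 in unc-37, against 174, 193 and 156 in wild type, the smallest adjusted p of the family (-1.58 ± 0.10, adjusted p = 0.000683). clec-72 had 82.6, 105 and 74.4 in unc-37, against 155, 181 and 182 in wild type (-0.99 ± 0.14, adjusted p = 0.00606). clec-76 had 51.7, 53.9 and 29.2 in unc-37, against 74.9, 107 and 90.1 in wild type (-1.05 ± 0.24, adjusted p = 0.0374). The values of clec-174 were tight in both groups and those of clec-76 were not: its unc-37 replicate 3 was far below the others, and its call ended when any wild-type array, or unc-37 replicate 1, was left out (adjusted p = 0.0642 to 0.136). The other 7 members of the run lay between -0.32 and 0.10 and were not called, among them clec-70. clec-174 is read by 1 probe set, of the _x_at kind that can also bind related transcripts.

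In the run of clec-82, clec-83 and clec-85, clec-83 fell with clec-85. It had 99.95, 155 and 112 in unc-37, against 222, 209 and 189 in wild type (-0.78 ± 0.16, adjusted p = 0.0268), and it was not called with any one of 4 arrays left out, wild-type replicates 1 and 2 among them (0.0696 to 0.104). In the run of clec-245, clec-246 and clec-42, clec-42 alone was called. The run of clec-57, clec-227, clec-56, clec-54 and clec-55 had all 5 members below 0 and none called, 2 with an unadjusted p below 0.05. In it clec-57, with the largest change of any member not called, had 156, 189 and 99.4 in unc-37, against 307, 296 and 194 in wild type (-0.86 ± 0.25, adjusted p = 0.0894). The run of 11 measured members from clec-40 to clec-33 had 10 below 0 and none called, 3 with an unadjusted p below 0.05, with clec-37 at 76.3, 57.2 and 61.3 in unc-37 against 98.8, 100.1 and 80.5 in wild type (-0.52 ± 0.14, adjusted p = 0.0624).

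**Figure D3:**
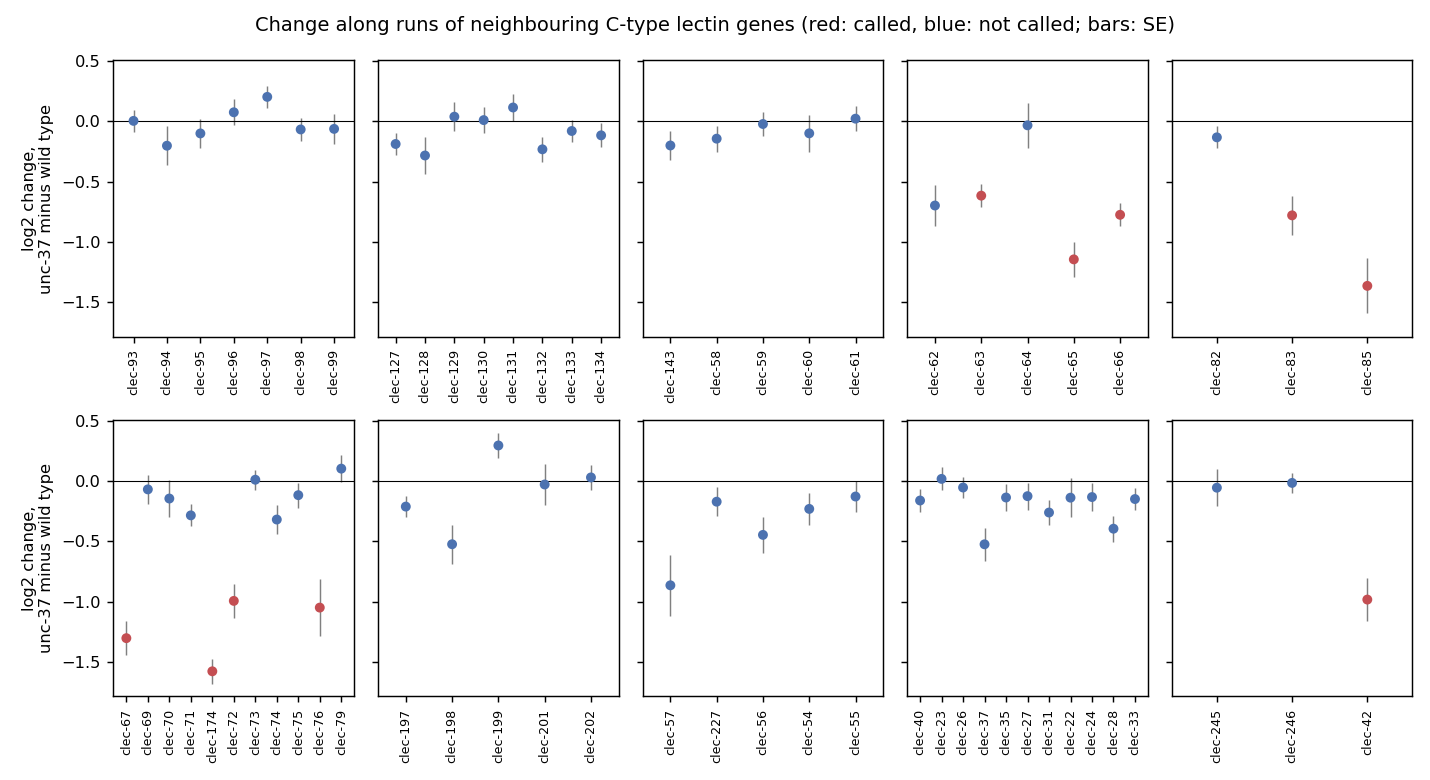
Log2 change (unc-37 minus wild type) of each member along 10 runs of neighbouring C-type lectin genes, those with a called gene or at least 5 members, in RefSeq gene order and with standard errors as bars. Called genes (red) stand beside neighbours not called (blue), such as clec-64 at -0.03 between clec-63 and clec-65.

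Of the falls outside these runs, that of clec-17 was the largest of the family. It had 479.7, 492 and 329 in unc-37, against 1357, 1620.2 and 1112 in wild type, 3.16-fold higher in wild type (-1.66 ± 0.19, adjusted p = 0.00248). clec-45 had 42.4, 33.9 and 48.2 in unc-37, against 107, 93.2 and 78.6 in wild type (-1.17 ± 0.16, adjusted p = 0.00499). Both stayed called with any array left out. The remaining 3 changed little in size. clec-230 had 73.1, 82.4 and 87.03 in unc-37, against 116, 125 and 99.4 in wild type (-0.49 ± 0.12, adjusted p = 0.0462). clec-178 had 46.3, 48.2 and 49.7 in unc-37, against 58.8, 62.9 and 62.3 in wild type (-0.35 ± 0.08, adjusted p = 0.0474). clec-263, a dim probe set, had 26.5, 25.97 and 26.7 in unc-37, against 36.4, 33.8 and 35.5 in wild type (-0.42 ± 0.08, adjusted p = 0.0229). The call of clec-178 was lost with any array left out (adjusted p = 0.0679 to 0.163), that of clec-230 with any but wild-type replicate 3 (0.0565 to 0.162), and that of clec-263 with any array but the replicate 3 of either group (0.0622 to 0.0924).

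**Figure D4:**
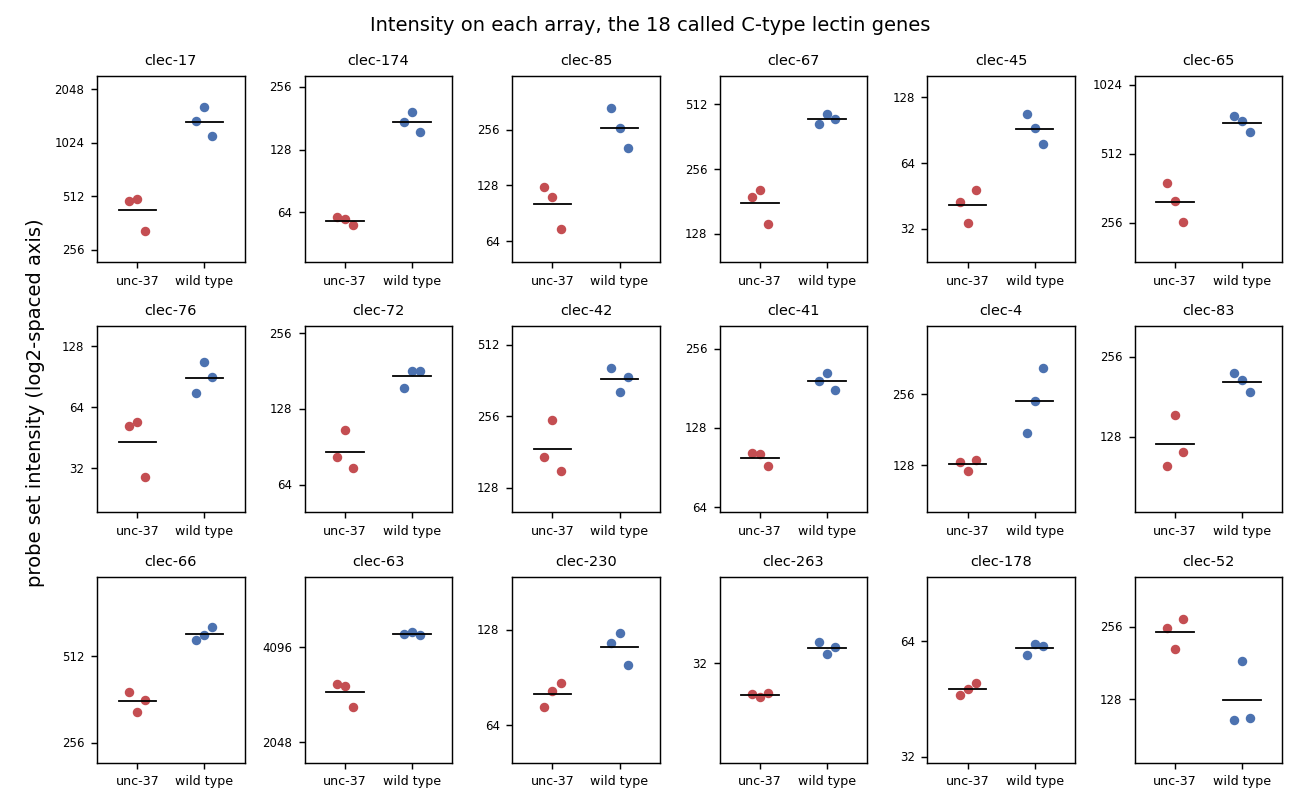
Intensity of the 18 called C-type lectin genes on each array (vertical axes, spaced in log2), with the 3 unc-37 arrays left (red) and the 3 wild-type arrays right (blue); the black line is the mean of the log2 values. In 17 genes all unc-37 arrays lie below all wild-type arrays, and in clec-52 all lie above.

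Not every strongly read member fell. clec-150 had 724, 718 and 756 in unc-37, against 776, 738 and 685 in wild type (0.0007 ± 0.09, adjusted p = 0.998), with a 95% interval of -0.20 to 0.20. clec-50 had 1468, 1502 and 977 in unc-37, against 1714, 1996 and 1726 in wild type (-0.49 ± 0.17, adjusted p = 0.145). clec-265 had 756, 909 and 545 in unc-37, against 948, 954 and 1113 in wild type (-0.48 ± 0.18, adjusted p = 0.172). The last 2 had unc-37 arrays below all wild-type arrays with replicate 3 the lowest, while the arrays of clec-150 were mixed. The dim gene clec-198 had 27.2, 20.6 and 17.7 in unc-37, against 27.9, 34.3 and 30.9 in wild type (-0.52 ± 0.16, adjusted p = 0.103). Of all 202 members not called, 154 lay below 0 and 48 above, with changes of -0.86 to 0.70, and 30 lower and 3 higher ones had an unadjusted p below 0.05. With called ones included, 51 of all 220 members, each at its brightest probe set, had such a p. So did 4697 of all 22548 probe sets, which also include dimmer probe sets of a gene and those naming several genes or none. None of the 18 pseudogenes was called by limma, with an unadjusted p below 0.05 in 2.

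Further probe sets gave a second reading of some members. Of 15 genes with more than 1 probe set, clec-65 and clec-72 had been called. The dimmer probe set of clec-72 fell as well, with 59.1, 65.9 and 47.3 in unc-37, against 111, 116 and 119.1 in wild type (-1.02 ± 0.13, adjusted p = 0.00372). The dimmer probe set of clec-65 was at 155, 154 and 69.1 in unc-37, against 222, 241 and 251 in wild type (-1.01 ± 0.28, adjusted p = 0.0779). Those of members named but not called changed little: clec-57 was at -0.23 ± 0.14 (adjusted p = 0.377) and clec-198 at -0.05 ± 0.10 (0.838). The dimmer probe set of clec-150 was at -0.21 ± 0.26 (0.718). The groups overlapped in each of these. Over all 16 further probe sets, 1 was called and 9 had the sign of the brightest. Of all 22548 probe sets, limma called 1447 in either direction.

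A set of 22 probe sets names a lectin gene together with another gene and was left out of the counts. Of these 22, 3 fell and none rose by limma (1 higher one had an unadjusted p below 0.05). Over all 22548 probe sets 1447 were called in either direction. The one for clec-67 and the pseudogene clec-69 had 53.6, 64.9 and 47.4 in unc-37, against 99.3, 109 and 115 in wild type (-0.97 ± 0.13, adjusted p = 0.00454). The one for clec-45 and the pseudogene clec-46 had 59.2, 38.2 and 56.9 in unc-37, against 95.1, 86.1 and 77.8 in wild type (-0.77 ± 0.17, adjusted p = 0.0358). Both moved the same way as clec-67 and clec-45 on their own probe sets. The one for F56A4.2 and clec-209 had 433, 279 and 222 in unc-37, against 1138, 1034 and 548 in wild type (-1.53 ± 0.31, adjusted p = 0.0255), and the table gives no way to assign it to either gene. Among those not called with an unadjusted p below 0.05, the one for clec-49 and clec-48 was higher (0.30 ± 0.13, adjusted p = 0.237). Those for clec-13 and clec-15 (-0.69 ± 0.22, 0.111) and for clec-253 and F11D11.6 (-0.39 ± 0.10, 0.0527) were lower.

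Markers of other tissues were set beside the lectin genes, first those of the intestine, where many lectin genes are made. Of 12 intestine markers none was called by limma and 1 had an unadjusted p below 0.05, 10 lay below 0, and their median change was -0.17, with a range of -0.47 to 0.15. Their summed intensity was 9015 to 12439.7 in unc-37 and 11934 to 13817 in wild type. Their mean log2 intensity was 8.72, 8.78 and 8.34 in unc-37 replicates 1 to 3, against 8.70, 8.79 and 8.87 in wild-type replicates 1 to 3. In unc-37 replicates 1 and 2 they lay within the wild-type range, and in unc-37 replicate 3 below it. All 220 lectin genes, most of them dim, averaged 5.40, 5.35 and 5.41 in the same unc-37 arrays, against 5.55, 5.60 and 5.49 in the wild-type arrays, without overlap. The 17 lectin genes that fell averaged 7.05, 7.09 and 6.85 in unc-37, against 7.97, 8.03 and 7.92 in wild type, a separation set by how they were chosen. unc-37 replicate 3 gave the lowest signal of 10 of the 17. Without it 14 lectin genes fell, 13 of them among the 17. The share of all genes that fell in that fit is not given here, so the 14 cannot be set against it.

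Of 11 hypodermis markers, 2 fell, the collagen gene dpy-13 (-0.91, adjusted p = 0.0451) and grd-10 (-0.66, adjusted p = 0.0358), and none rose; 5 had an unadjusted p below 0.05, 8 lay below 0, and the median change was -0.35, with a range of -0.91 to 0.59. Their summed intensities, to which dpy-13 and the collagen gene sqt-3 gave the most, were 9227 to 13538 in unc-37 and 14769 to 19471 in wild type. Their mean log2 intensities overlapped, at 9.05, 8.70 and 8.83 in unc-37 and 8.90, 9.25 and 9.09 in wild type, and the cuticle collagen gene dpy-7 (0.59, adjusted p = 0.203) and the transcription factor gene lin-26 (0.49, adjusted p = 0.166) were not called. The coelomocyte gene lgc-26 fell (-0.38, adjusted p = 0.0435), the only one of 3 coelomocyte markers to be called. Limma called none of 7 pharynx, 8 body wall muscle, 4 glia and 4 germline markers; at an unadjusted p below 0.05 stood 3 glia markers and none of the others. All 6 A-class and cholinergic genes and 11 of 17 pan-neuronal genes rose, with pan-neuronal sums of 13908 to 15106 in unc-37 and 8969.5 to 10024 in wild type. The part of these shifts in the change of the lectin genes was not tested. When every array was scaled to the pan-neuronal genes, all log2 changes became 0.60 lower, the median of all genes was -0.62 and that of the lectin genes -0.70, so the falls given here are relative to the deposited scale.

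**Figure D5:**
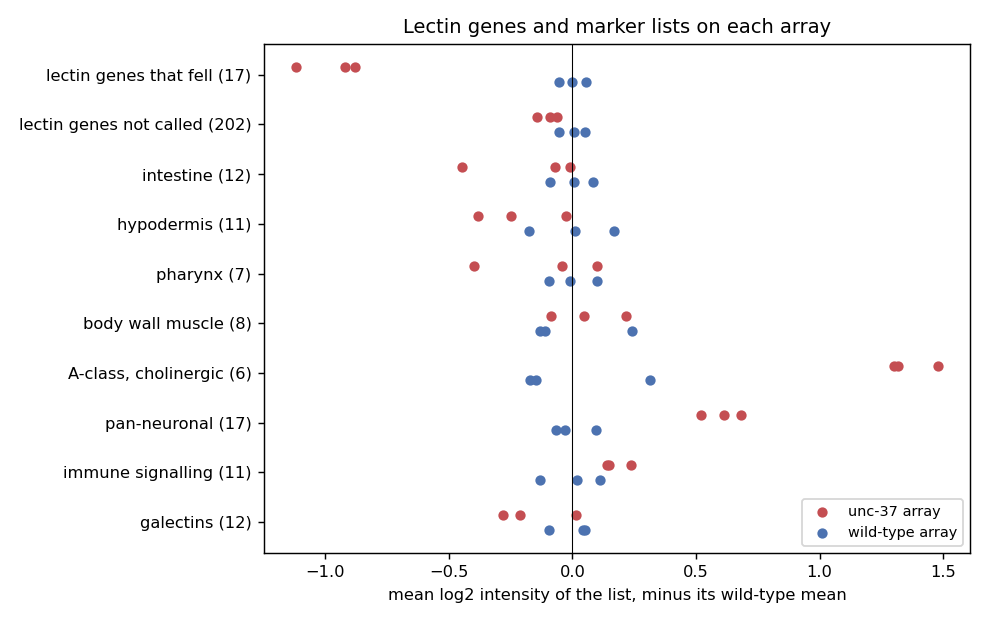
Mean log2 intensity of each gene list on each array, less its mean over the wild-type arrays (horizontal axis), for unc-37 arrays (red, upper row of each list) and wild-type arrays (blue, lower row). The lectin genes that fell, which were chosen by this change, lie apart on all 3 unc-37 arrays, while intestine, hypodermis, pharynx and muscle markers overlap between the groups and neuronal lists lie higher in unc-37. The coelomocyte list, lower on all 3 unc-37 arrays, and the glia and germline lists are not drawn.

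Genes near the lectins in function were read from lists too. Of 11 measured genes of immune signalling, which include the p38 kinase gene pmk-1 and its upstream kinase gene sek-1, limma called none and 2 had an unadjusted p below 0.05. These were pmk-1 itself (0.54 ± 0.20, adjusted p = 0.172) and dbl-1 (0.66 ± 0.17, adjusted p = 0.0547), both higher in unc-37. The median change of the 11 genes was 0.09 with a range of -0.08 to 0.66. Of 12 galectin genes, which encode sugar-binding proteins of a different fold, lec-11 fell (-0.61, adjusted p = 0.0332) and none rose, with a median of -0.18.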

How the data were processed

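RNA of 6 samples was measured on single-colour arrays of probe sets after 2 rounds of in vitro transcription, per the labels' protocols. The deposited values are probe set intensities made with RMA by the authors, per the submitters' processing notes; its version is not given in the sources used here. Their scale was read as linear from the values (lowest 10.2, highest 15148), and they were log2 transformed with no filter and no further normalization. Of 22548 probe sets, 20766 name 1 gene, 887 several and 895 none. Differences were tested over all probe sets with limma (lmFit, eBayes; version 3.58.1, under R 4.3.3), two-sided, Benjamini-Hochberg adjusted, with a call at 0.05; the script was tested on simulated data. For 1 gene alone, an exact permutation test of 3 against 3 arrays can reach p = 0.1 at the lowest. The p-values of limma set the difference between the groups against the spread between arrays within groups, moderated over all probe sets.

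Named are all called members, the 5 brightest, the 5 largest changes among those not called, 11 members with a known role and called genes of the galectin and immune lists. clec-64, the immune genes pmk-1 and dbl-1 and the marker genes were named after their values were seen. Members and lists were chosen with earlier results of these data known. Neighbours come from RefSeq assembly WBcel235; the files name no build, so no coordinates are given. Same-numbered arrays correlated in their deviations at -0.19, -0.14 and -0.10, so the replicate numbers do not pair them. The alternatives changed the prior variance, array weights, filters on dim probe sets, normalization or scaling, the replicate block, single arrays, thresholds, the probe sets used and a value added before log2. Figures used matplotlib 3.10.9 in Python 3.11.15.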

Additional observations from a re-analysis of the deposited data

How the results depend on the processing

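Of the 18 called lectin genes, 9 kept their call under each of the 19 alternatives that gave them a value: clec-17, clec-41, clec-45, clec-63, clec-65, clec-66, clec-67, clec-72 and clec-174. Not all of them faced every alternative. clec-17, clec-41, clec-65 and clec-174 are read by probe sets of other kinds and had no value with only plain _at probe sets. clec-45 had none with probe sets above 6. The count of members that fell was 17 and ranged from 12 to 25 under the alternatives other than leaving out an array and scaling to pan-neuronal genes. The 25 came from the looser threshold of adjusted p below 0.1. The 12 came from only plain _at probe sets, where called members read by other kinds were not tested. The shares of all genes that fell under these settings are not given here, so neither end of the range can be set against them. The share of all genes that fell moved too, from 2.81% in the main fit to 4.22% with array weights, where 23 members fell. Filters on dim probe sets also tested fewer members: 16 of 73 fell above the median signal (5.11% of genes kept) and 14 of 48 above 6 (5.48%). With single arrays left out the count of members that fell ranged from 10 to 18. It was 11 when wild-type replicate 1 was left out (1.43% of all genes fell), 10 for wild-type replicate 2 (1.33%) and 11 for unc-37 replicate 1 (1.28%). The count that rose was 0 or 1. Scaled to pan-neuronal genes, 217 of 220 members were called lower, as were 87.3% of all genes, and none higher. The count that rose was 0 with a second quantile normalization, the replicate block or 16 added before log2. With the replicate block 16 fell, 14 of them among the 17. The median change of members was -0.20 with probe sets above the median signal, -0.27 with those above 6 and -0.70 with the pan-neuronal scaling, each in a smaller or shifted set by construction. Signs turned for members not called: clec-150 was at -0.025 with array weights, -0.12 with a second quantile normalization, -0.60 with the pan-neuronal scaling, -0.10 as the mean of its probe sets and between -0.047 and 0.043 with single arrays left out; clec-49 was at -0.54 with the pan-neuronal scaling and between -0.017 and 0.16 with single arrays left out; clec-60 was between -0.26 and 0.039 with single arrays left out. The causes were not tested. Dim probe sets limit what can be seen: 172 of 220 members had a mean signal of 6 or less.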
